A study of Mus musculus with 6 samples.

Results

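The genes described here encode the MHC class II antigen presentation pathway: the classical chains H2-Aa, H2-Ab1 and H2-Eb1, the invariant chain Cd74, the peptide-loading chains H2-DMa and H2-DMb1, the transactivator Ciita and the protease Ctss. These 8 genes were taken by symbol from the array's probe annotation, which assigns 17 of 45037 probe sets to them. Of the 8, 7 have a probe set of their own among 18193 genes so measured. Both probe sets of H2-DMb1 are also assigned to its near-copy H2-DMb2, so they name neither gene and are given only as a shared signal.

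Heart RNA was compared between TNFαDes-/- mice, which lack the intermediate filament protein desmin and overexpress the cytokine TNF-α in the heart, and Des-/- mice, which lack desmin alone. Each genotype has 3 one-colour arrays, all from animals aged 3 months. TNFαDes-/- mice were on a mixed 129SV/C57 background and Des-/- mice on 129SV, and the strain difference cannot be told apart from the transgene; both groups lack desmin. The labels describe a pool of RNA from 3 hearts per genotype, so the arrays of a group may be repeats of 1 pool and the p-values measure only the spread between arrays. The sources used here name no promoter for the transgene.

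MHC class II molecules are heterodimers of an alpha and a beta chain that show peptides from the endosome to helper T cells. The invariant chain occupies their groove during transport, lysosomal proteases (Ctss for the last step) trim it to a short remnant, and the H2-DM heterodimer swaps that remnant for a peptide. Dendritic cells, B cells and macrophages make these molecules constitutively or on activation. In most other cells CIITA, which interferon-γ induces, has to be made first, and it acts on a set of conserved promoter boxes through the RFX, CREB and NF-Y factors.

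As the values were deposited, the class II genes did not move as a block. Ctss, which encodes cathepsin S, was 1.74-fold lower in TNFαDes-/- hearts, and it was the 1 member past the test (limma adjusted p under 0.05 over all genes). The classical chains, the invariant chain, H2-DMa and Ciita did not pass as the values were deposited, with log2 differences between -0.28 and 0.13. The count of 1 lower and 0 higher among 7 members stands beside 6.05% of all genes called lower and 15.2% called higher, so neither count sets the members apart from all genes. The median log2 difference of the 7 members was -0.11, and that of all genes was 0.04. Quantile normalization forces all arrays onto 1 distribution. After it, 4 of 7 members were called lower (H2-Aa, H2-Eb1, H2-DMa and Ctss) and 0 higher. Of all genes, 10.4% were then called lower and 12.0% higher. On that scale each of the 7 members lay below 0, from -1.11 (Ctss) to -0.04 (Ciita).

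The arrays differ in a way that touches each of these values. Each array's 99th percentile (log2) lay at 12.26 to 12.31 on the TNFαDes-/- arrays, against 12.27 on Des-/- replicate 1 and 11.69 to 11.75 on the other two Des-/- arrays, so bright probe sets read lower on those 2 arrays. Among the 2493 genes with a mean of at least 9, the median log2 difference was 0.29 as deposited and 0.02 after quantile normalization. Of these bright genes 20.8% lay below 0 as deposited. The log2 ratio of 3′ to 5′ control probe sets also moved with the group, at 0.28 to 0.34 in TNFαDes-/- and -0.05 to 0.01 in Des-/- arrays for Gapdh; its part in the results was not tested.

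The promoter windows of class II genes are shown first because their shared boxes define the pathway's common control. Windows of 300 bases around the start of transcription were taken from RefSeq on build GRCm38.p6, and 5 of the 8 members matched an entry. Each was searched on both strands for CNNGNAAC, a loose core of the X box, for TGATTGG, a form of the Y box, and for GAAA repeated after any 2 bases, the core of an interferon-regulatory-factor element. Over all 32851 windows the first was found in 39.1%, the second in 7.82% and the third in 3.44%. An X core followed on the same strand by a Y box, 15 to 40 bases further on, was found in 0.195%. That pair was present in H2-Aa, H2-Eb1 and H2-DMb1, with 26, 25 and 26 bases between the boxes. It was not found in the windows of H2-DMa or Ctss, and the motif letters were chosen with these windows in view. In the first 3 stretches below, the capitals mark the X core and the Y box; in the Ctss stretch they mark the GAAA repeat, which starts 21 bases before the annotated start.
H2-Aa (GRCm38.p6, chr17:34287847-34287917, minus strand): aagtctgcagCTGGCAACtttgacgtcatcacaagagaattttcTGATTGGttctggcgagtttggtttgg
H2-Eb1 (GRCm38.p6, chr17:34305763-34305832, plus strand): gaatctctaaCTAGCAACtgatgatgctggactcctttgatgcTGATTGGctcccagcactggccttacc
H2-DMb1 (GRCm38.p6, chr17:34153084-34153154, plus strand): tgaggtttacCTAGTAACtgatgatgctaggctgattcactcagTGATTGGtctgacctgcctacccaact
Ctss (GRCm38.p6, chr3:95526735-95526816, plus strand): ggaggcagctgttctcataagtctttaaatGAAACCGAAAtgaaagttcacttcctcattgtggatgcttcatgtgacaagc
The windows begin before the first base of the annotated transcripts and end past it. The printed H2-Aa, H2-Eb1 and H2-DMb1 stretches end before that base, and the Ctss stretch crosses it. The reference is the C57BL/6J genome, and the 129SV alleles of these windows were not analysed here.

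Ctss had log2 signals of 10.03, 9.83 and 10.13 on the TNFαDes-/- arrays, against 11.16, 10.59 and 10.62 on the Des-/- arrays. Every TNFαDes-/- array lay below every Des-/- array, and Des-/- replicate 1 was the highest. The SD between arrays was 0.15 in the TNFαDes-/- and 0.32 in the Des-/- group (n = 3 arrays each). The log2 difference was -0.80 ± 0.16 (SE; 95% interval -1.17 to -0.42; limma adjusted p = 0.0103). Ctss passed in all 18 settings in which all genes were fitted, with differences from -1.16 to -0.60 and adjusted p-values from 9.38e-05 to 0.0424. Without Des-/- replicate 1 the difference was -0.61, and after quantile normalization -1.11. Of the 2493 bright genes, 44 (1.76%) had a log2 difference as low as that of Ctss or lower, as a description of where it lies. In bulk heart RNA, fewer cells that express a gene and less of its RNA per cell cannot be told apart.

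Among the classical chains, H2-Aa encodes the alpha and H2-Ab1 the beta chain of the I-A molecule, and H2-Eb1 encodes the beta chain of I-E. H2-Aa, on its brightest probe set, read 10.57, 10.60 and 10.56 on the TNFαDes-/- arrays, against 10.91, 10.57 and 10.59 on the Des-/- arrays. The groups overlapped, and the TNFαDes-/- values lay beside those of Des-/- replicates 2 and 3, with Des-/- replicate 1 above them all. Its log2 difference was -0.11 ± 0.12 (SE; 95% interval -0.38 to 0.15; adjusted p = 0.548).

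H2-Ab1, on its brightest probe set, read 9.54 on each TNFαDes-/- array, against 9.85, 9.33 and 9.43 on the Des-/- arrays. The TNFαDes-/- arrays thus fell inside the range of the Des-/- arrays, with a log2 difference of 0.00 ± 0.14 (SE; 95% interval -0.32 to 0.32; adjusted p = 0.995). H2-Eb1, which has a single probe set, read 9.50, 9.42 and 9.48 on the TNFαDes-/- arrays, against 9.98, 9.58 and 9.64 on the Des-/- arrays. Its groups did not overlap, as was so for 38.0% of all genes, and the log2 difference of -0.27 ± 0.12 (SE; 95% interval -0.55 to 0.01) did not pass (adjusted p = 0.156).

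The size of these differences, and for H2-Ab1 the sign, moved with the scaling of arrays. After quantile normalization H2-Aa and H2-Eb1 were called lower, at -0.44 (limma adjusted p = 0.011) and -0.52 (adjusted p = 0.00235), while H2-Ab1 stood at -0.23 (adjusted p = 0.0881). With Des-/- replicate 1 left out of the deposited values, H2-Ab1 stood at 0.16 and H2-Eb1 at -0.15, and neither passed (adjusted p = 0.209 and 0.232).

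As deposited, probe sets of the same chain differed in size and, for H2-Ab1, in whether they passed. The second-brightest probe set of H2-Ab1 read 8.56, 8.49 and 8.64 on the TNFαDes-/- arrays, against 9.16, 8.90 and 8.98 on the Des-/- arrays. This is a log2 difference of -0.45 ± 0.11 (SE) that passed when all probe sets were fitted (limma adjusted p = 0.0247), unlike the brightest one. The remaining H2-Ab1 probe set gave -0.19. After quantile normalization the H2-Ab1 probe sets stood at -0.23, -0.64 and -0.31, of which the second passed (adjusted p = 0.00203). For H2-Aa, a dimmer probe set read 8.11, 8.26 and 8.31 on the TNFαDes-/- arrays, against 8.90, 8.57 and 8.51 on the Des-/- arrays, without overlap, at -0.43 (adjusted p = 0.0569). H2-Aa also has a probe set at -0.17 and a dim probe set at -0.41 that was under the median of all 6 arrays. None of the 4 passed as deposited, where all 4 were below 0. After quantile normalization they stood at -0.44, -0.44, -0.60 and -0.38, and all but the dim one passed. Probe sets whose names end in _s_at or _x_at can bind related transcripts, and the class II chain genes are polymorphic between strains; neither was tested here.

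Of the 15 member probe sets with 1 gene symbol, 2 were called lower (the second-brightest of H2-Ab1 and that of Ctss) and 0 higher in the fit of single probe sets, where 4.93% of all probe sets were called lower. After quantile normalization 6 were called lower and 0 higher, where 7.74% were called lower. Groups did not overlap for 5 of the 15, all lower in TNFαDes-/- hearts; 14.1% of all probe sets were lower without overlap. The members share cells, arrays and in part probes, so these counts are not independent.

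**Figure D1:**
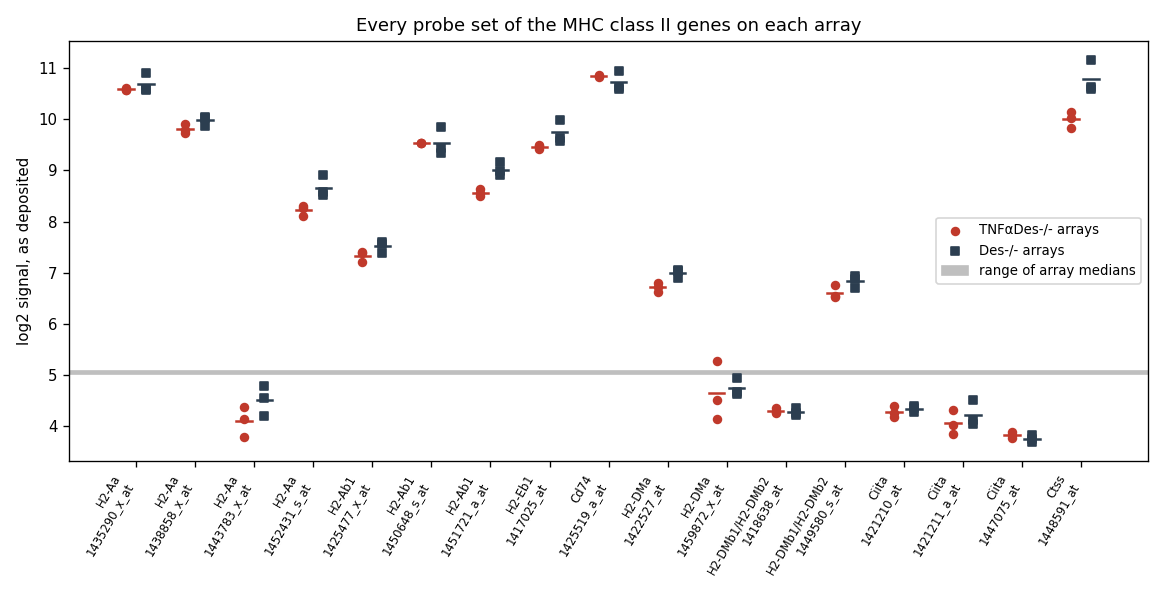
Log2 signal as deposited (vertical axis) of every probe set assigned to the 8 genes, with TNFαDes-/- arrays as red circles and Des-/- arrays as dark squares, group means as short bars and the range of array medians (5.02 to 5.08) in grey. Ctss shows a gap between the groups, with 9.83 to 10.13 in TNFαDes-/- and 10.59 to 11.16 in Des-/- arrays, while Ciita lies below the grey band on each of its probe sets.

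The invariant chain Cd74 has 1 probe set, and its difference had the opposite sign to those of H2-Aa and H2-Eb1 as deposited. It read 10.85, 10.86 and 10.83 on the TNFαDes-/- arrays, against 10.94, 10.58 and 10.63 on the Des-/- arrays. The TNFαDes-/- values lay above Des-/- replicates 2 and 3 and below replicate 1, and the log2 difference of 0.13 ± 0.12 (SE; 95% interval -0.14 to 0.40) did not pass (adjusted p = 0.484). After quantile normalization it was -0.22 (adjusted p = 0.139), and without Des-/- replicate 1 it was 0.24 (adjusted p = 0.0628), so its direction is not settled.

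Differences within an array do not depend on a shift common to the whole array, so 3 were formed. The absolute value of such a difference reflects the probes, and only its change between the groups is read. The array medians already lay close together, at 5.02 to 5.08. An array effect that depends on brightness does not cancel between genes of unlike signal, so these contrasts are not free of it. Ctss minus the mean of H2-Aa, H2-Ab1, H2-Eb1 and Cd74 was -0.09, -0.28 and 0.03 on the TNFαDes-/- arrays, against 0.74, 0.58 and 0.55 on the Des-/- arrays. Ctss was thus lower relative to these 4 genes by a log2 difference of -0.73, without overlap, and by -0.76 after quantile normalization. Cd74 minus the mean of the 3 classical chains was 0.98, 1.01 and 0.97 on the TNFαDes-/- arrays, against 0.69, 0.75 and 0.74 on the Des-/- arrays. The groups did not overlap, and the contrast differed by 0.26 as deposited and 0.18 after quantile normalization. Here Des-/- replicate 1 lay beside its group, unlike for the single genes. Ctss minus Ctsd, the gene of the aspartic protease cathepsin D, was -2.69, -2.95 and -2.56 on the TNFαDes-/- arrays, against -1.03, -1.23 and -1.13 on the Des-/- arrays. That contrast differed by -1.61 as deposited and by -1.54 after quantile normalization. Each of the 3 contrasts gave p = 0.1 in an exact two-sided permutation test over the arrays. This is the smallest p that 3 against 3 arrays allow, and the value adjusted over the 3 is the same. Ctss alone lay lower and Ctsd alone higher without overlap, so the separation of their contrast was fixed in advance. The genes were chosen with earlier results of these data known, so these p-values add no support.

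**Figure D2:**
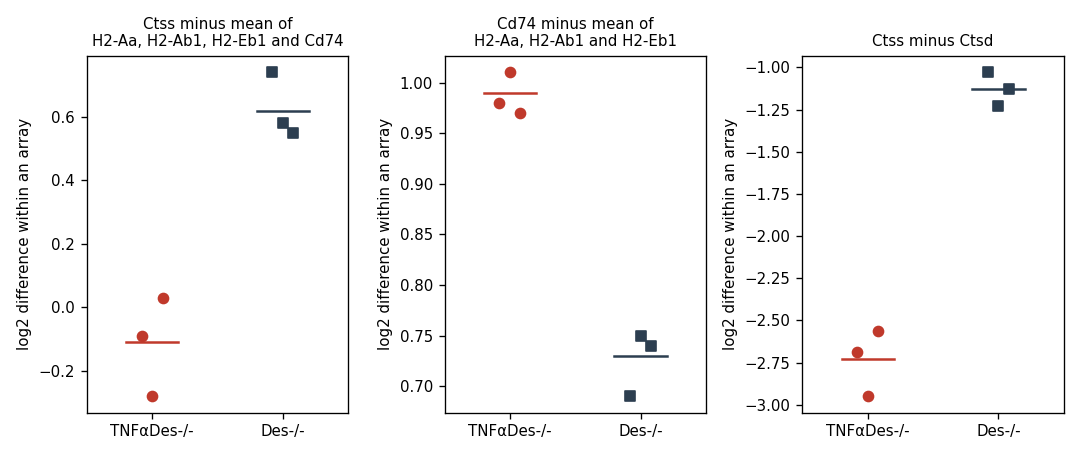
Differences of log2 signal within an array (vertical axes, each with its own range and not starting at 0), with TNFαDes-/- arrays as red circles, Des-/- arrays as dark squares and group means as bars. In all 3 panels the groups are apart: Ctss is lower relative to the chains and to Ctsd, and Cd74 lies at 0.97 to 1.01 in TNFαDes-/- and 0.69 to 0.75 in Des-/- arrays.

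The peptide-loading genes were nearer to background. H2-DMa, the alpha chain of H2-DM, read 6.73, 6.81 and 6.62 on the TNFαDes-/- arrays, against 7.03, 7.06 and 6.90 on the Des-/- arrays. The groups did not overlap, and the log2 difference of -0.28 ± 0.10 (SE; 95% interval -0.51 to -0.04) did not pass as deposited (limma adjusted p = 0.0903) but did after quantile normalization (-0.35, adjusted p = 0.0414). Its lower value held in each of the 18 settings, from -0.38 to -0.19. The second H2-DMa probe set lay below the array median on 5 of 6 arrays. The brighter probe set shared by H2-DMb1 and H2-DMb2 read 6.55, 6.77 and 6.52 on the TNFαDes-/- arrays, against 6.70, 6.88 and 6.94 on the Des-/- arrays, a difference of -0.23 that overlapped and did not pass (adjusted p = 0.235). The other shared probe set was under every array's median.

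Ciita, the master regulator of the pathway, had no signal shown to exceed background. Its brightest probe set read 4.26, 4.18 and 4.40 on the TNFαDes-/- arrays, against 4.37, 4.39 and 4.29 on the Des-/- arrays. All 3 Ciita probe sets were under every array's median, there are no detection calls to consult, and the log2 difference of -0.07 ± 0.10 (SE; adjusted p = 0.668) says little about its RNA.

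**Figure D3:**
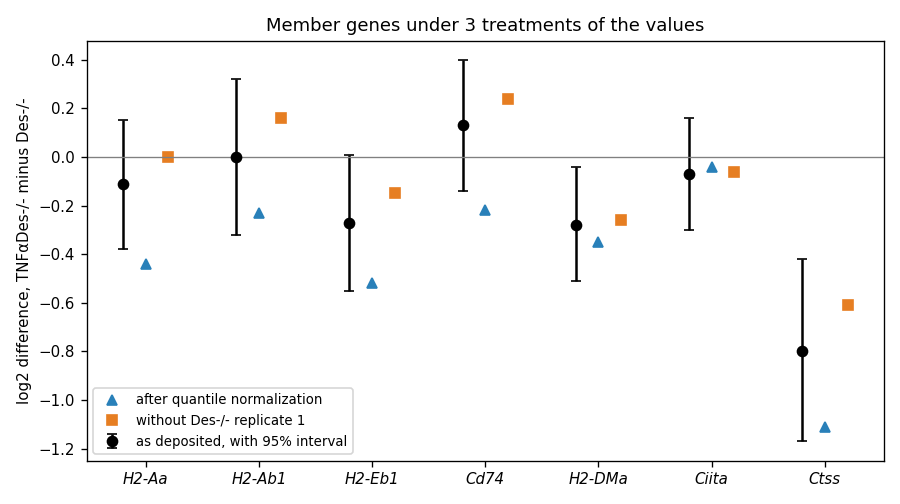
Log2 difference TNFαDes-/- minus Des-/- (vertical axis) of the 7 genes with a probe set of their own, as deposited with its 95% interval (black), after quantile normalization (blue triangles) and without Des-/- replicate 1 (orange squares). Ctss lies between -1.11 and -0.61 under all 3, whereas H2-Ab1 lies between -0.23 and 0.16 and Cd74 between -0.22 and 0.24.

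A wider list of 23 pathway genes was set beside the members, and all 23 were measured. Of these, 3 were higher and 0 lower as deposited, against 15.2% higher and 6.05% lower of all genes, with a median log2 difference of 0.13. The 3 were Ctsd, Sppl2a and Cd86. Quantile normalization called 4 higher and 3 lower among them, and leaving out Des-/- replicate 1 called 7 higher and 2 lower, where 23.4% of all genes were called higher and 8.56% lower.

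Of 6 genes for lysosomal enzymes on the list, 2 were higher and 0 lower as deposited. Ctsd read 12.72, 12.78 and 12.69 on the TNFαDes-/- arrays, against 12.19, 11.82 and 11.75 on the Des-/- arrays, all apart. It rose by 0.81 ± 0.13 on the log2 scale (SE; limma adjusted p = 0.00323), 0.43 after quantile normalization. With Des-/- replicate 1 as the sole Des-/- array the difference was 0.54 and did not pass (adjusted p = 0.0537). Sppl2a, the intramembrane protease that clears the last membrane-bound remnant of the invariant chain, read 8.82, 8.66 and 8.81 on the TNFαDes-/- arrays, against 8.42, 7.77 and 7.92 on the Des-/- arrays. Its rise of 0.73 ± 0.16 (SE; adjusted p = 0.0148) was 0.42 as the mean of its probe sets, which did not pass (adjusted p = 0.22). The call also ended without TNFαDes-/- replicate 1 (0.70) or 3 (0.70) and without Des-/- replicate 2 (0.60) or 3 (0.67), with adjusted p-values up to 0.0655, and with Des-/- replicate 1 as the sole Des-/- array (0.35, adjusted p = 0.184).

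Lgmn, an asparaginyl endopeptidase that acts early on the invariant chain, read 8.65, 8.46 and 8.48 on the TNFαDes-/- arrays, against 8.37, 8.08 and 7.91 on the Des-/- arrays, a difference of 0.41 ± 0.13 (SE) that did not pass (adjusted p = 0.0587). The thiol reductase Ifi30 stood at 0.03. Ctsl, which replaces Ctss in thymic cortical epithelium, stood at 0.07 and Ctsb at 0.10, and after quantile normalization both were called lower, at -0.28 each. Without Des-/- replicate 1 Ctsl was called higher (0.28, adjusted p = 0.0412), and Ctsb stood at 0.26 (adjusted p = 0.0523), so the direction of neither is settled. The other 4 Ctsb probe sets stood below 0 as deposited, at -0.49, -0.38, -0.41 and -0.07, of which the first passed in the fit of single probe sets (adjusted p = 0.0108).

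Cd86, a costimulatory ligand of antigen-presenting cells, read 6.01, 5.80 and 6.02 on the TNFαDes-/- arrays, against 5.19, 5.36 and 5.16 on the Des-/- arrays. It rose by 0.71 ± 0.11 on the log2 scale (SE; limma adjusted p = 0.00287), by 0.70 after quantile normalization, and its second probe set gave 0.51 (adjusted p = 0.011). The rise lay between 0.61 and 0.78 in every setting in which it was fitted. Its partner Cd80, at -0.30, was under every array's median, and the costimulatory receptor Cd40 stood at 0.14.

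Of 7 genes that encode factors of the class II promoter boxes, 0 passed in limma on their brightest probe set as deposited, with a median of 0.08. The RFX subunits Rfxank (0.31 ± 0.094 SE, adjusted p = 0.0502), Rfx5 (0.17) and Rfxap (0.08) stood above 0, as did the NF-Y subunits Nfyc (0.34, adjusted p = 0.0542) and Nfyb (0.02), while Nfya (-0.21) and Creb1 (-0.44) stood below. At an unadjusted p under 0.05, Rfxank and Nfyc were the 2 that passed. After quantile normalization Creb1 was called lower (-0.57, adjusted p = 0.0358). In the limma fit of single probe sets as deposited, dimmer probe sets of Rfxank (0.51, adjusted p = 0.0365) and Nfyb (0.42, 0.0418) were called higher. One of Nfya (-0.43, 0.0477) was called lower. That fit called 4476 of 45037 probe sets higher and 2219 lower.

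The ubiquitin ligases that remove surface class II, Marchf1 (0.37) and Marchf8 (0.32), did not pass as deposited, and Marchf1 lay below the median of each array. Marchf1 was called higher after quantile normalization (0.39, limma adjusted p = 0.0392), and Marchf8 with array weights (0.64, limma adjusted p = 0.00184). The remaining genes of class II chains were dim or scattered, and whether these strains make a protein from each was not tested. H2-Ea stood at -0.48 with array values of 5.62, 6.10 and 5.57 in TNFαDes-/- and 5.70, 6.35 and 6.69 in Des-/- hearts, which overlapped. It was -0.75 and called lower without Des-/- replicate 1 (adjusted p = 0.0192), -0.26 and not past the test without Des-/- replicate 3, and 0.06 with Des-/- replicate 1 as the sole Des-/- array. H2-Eb2 stood at 0.13, H2-DMb2 at -0.18, H2-Oa at -0.27 and H2-Ob at 0.21, and the probe sets of the last pair, which encode the H2-O inhibitor of H2-DM, lay below the median of each array. Another probe set, shared by H2-Ob and Gm20506, lay below the median on 2 of 6 arrays and stood at -0.32 (adjusted p = 0.136 over single probe sets).

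The H2 class II genes are neighbours on the chromosome, with genes of class I peptide supply among them. The order given here holds protein-coding genes, with H2-Ea taken in by its symbol. In the order of the reference annotation, H2-Oa is followed by Brd2, H2-DMa, H2-DMb2, H2-DMb1, Psmb9, Tap1, Psmb8, Tap2, H2-Ob, H2-Ab1, H2-Aa, H2-Eb1, H2-Eb2 and H2-Ea. Of the 14 with a probe set of their own, 0 passed as deposited in limma, where 21.3% of all genes did, and 3 passed after quantile normalization (H2-DMa, H2-Aa and H2-Eb1, all lower), where 22.5% of all genes did, so neither count sets the region apart. The class I peptide transporter subunit Tap2 stood at 0.47 (adjusted p = 0.0578) and its partner Tap1 at 0.00.

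**Figure D4:**
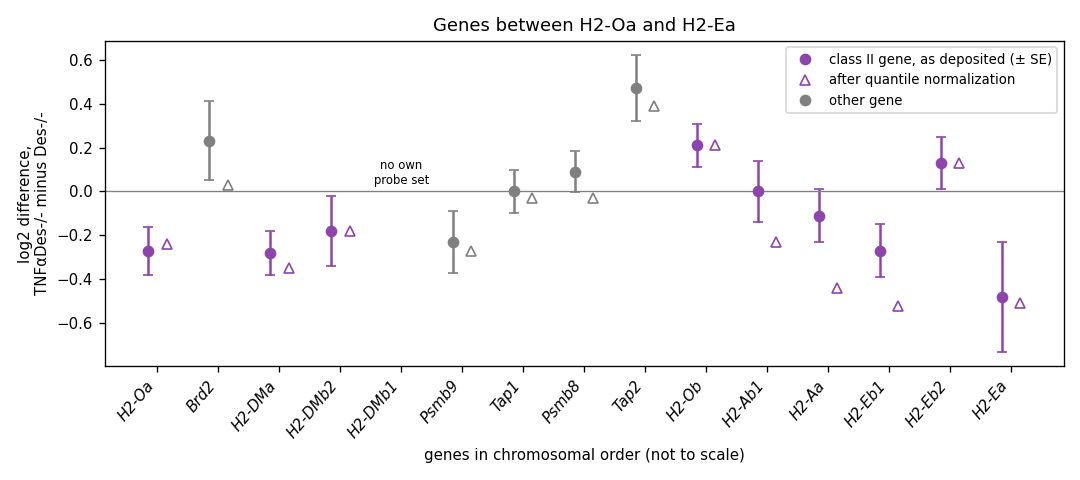
Log2 difference TNFαDes-/- minus Des-/- (vertical axis) of the genes from H2-Oa to H2-Ea in chromosomal order, with filled circles ± SE as deposited and open triangles after quantile normalization, class II genes in purple and others in grey. H2-Aa and H2-Eb1 sit at -0.11 and -0.27 as deposited and at -0.44 and -0.52 after quantile normalization, while H2-Eb2, beside them, stays at 0.13.

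Interferon-γ signalling, the classical inducer of Ciita, was read from 6 measured genes. Irf1, a transcription factor that interferon-γ induces, was the 1 gene past the test as deposited. It read 8.18, 8.13 and 8.14 on the TNFαDes-/- arrays, against 8.81, 8.72 and 8.80 on the Des-/- arrays, and fell by 0.63 on the log2 scale (SE 0.091; limma adjusted p = 0.0021), beside 6.05% of all genes called lower. In the settings in which it was fitted its difference lay between -0.89 and -0.59; its 1 probe set falls out without _a_at, _s_at and _x_at probe sets. Ifng itself was under every array's median. The receptor chains Ifngr1 (0.27) and Ifngr2 (-0.02) and the kinases Jak1 (-0.07) and Jak2 (-0.26) did not pass as deposited. A dim Jak1 probe set was called lower in the limma fit of single probe sets (-1.02, adjusted p = 0.015). After quantile normalization Jak2 was called lower (-0.39, limma adjusted p = 0.0252). Without Des-/- replicate 1 Ifngr1 was called higher (0.39, limma adjusted p = 0.038).

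Genes that mark antigen-presenting cells moved in both directions. Of 7 measured dendritic cell markers, 3 were lower and 0 higher, beside 6.05% lower and 15.2% higher of all genes. The 3 were the integrin Itgax, Zbtb46 (-0.67) and Cd209a (-0.38). Itgax read 5.26 ± 0.24 on the TNFαDes-/- arrays and 8.04 ± 0.02 on the Des-/- arrays (mean ± SD between arrays, n = 3 arrays each). The summed signal of the list was 7.93 to 8.07 on the TNFαDes-/- arrays, against at least 9 and at most 9.07 on the Des-/- arrays (log2), and 4 of the 7 genes, including Xcr1, Ccr7 and Batf3, lay below the median of each array. Without Itgax the sum of the other 6 was 7.72 to 7.82 on the TNFαDes-/- arrays, against 7.95 to 8.13 on the Des-/- arrays, and their log2 differences ran between -0.67 and 0.03. Cd209a was the other gene below the medians, and its call ended in several settings, without TNFαDes-/- replicate 1 (adjusted p = 0.161) among them.

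Macrophage markers were higher in 9 of 16 cases and lower in 1, beside 15.2% higher and 6.05% lower of all genes. Cd14 rose by 1.75 and Lyve1, a marker of resident macrophages and lymphatic vessels, by 1.35 on the log2 scale, while the lysosomal glycoprotein Cd68 fell by 1.48. The summed signal of the list was 13.81 to 13.86 on the TNFαDes-/- arrays and 13.09 to 13.53 on the Des-/- arrays (log2). B cell markers had a summed signal of 7.22 to 7.47 on the TNFαDes-/- arrays and 7.22 to 7.41 on the Des-/- arrays; of 6 measured, 1 was lower (Cd22, -0.63) and 0 higher, and Ms4a1 lay below the median of each array. The Cd22 call ended without TNFαDes-/- replicate 3 (adjusted p = 0.0648), Des-/- replicate 2 (0.0539) or Des-/- replicate 3 (0.0555). T cell markers had 0 calls among 5 in limma (at an unadjusted p under 0.05, 1, Cd3e at -0.30). The part of these cell populations in the lower Ctss was not tested.

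The counts of the other lists stand beside the same 15.2% higher and 6.05% lower of all genes as deposited. Among them, monocyte markers had 1 lower among 3 measured, Ccr2 (-0.37), whose call ended without any one array except Des-/- replicate 1. Endothelial markers, which matter because heart endothelium can carry class II, had 2 lower and 0 higher among 4, Tie1 (-0.57) and Pecam1 (-0.42). The Pecam1 call ended without TNFαDes-/- replicate 1 (limma adjusted p = 0.0941), TNFαDes-/- replicate 3 (0.0915) or Des-/- replicate 3 (0.0729). Fibroblast markers had 2 higher among 5, Dcn (0.93) and Col1a2 (0.67). The Col1a2 call ended after quantile normalization (0.30) and as the mean of its probe sets (0.26, adjusted p = 0.0746). It also ended without _a_at, _s_at and _x_at probe sets (0.03, adjusted p = 0.882). Among cardiomyocyte markers, 0 of 6 passed in limma as deposited, 5 were higher without Des-/- replicate 1, as were 23.4% of all genes, and 2 were lower after quantile normalization, as were 10.4% of all genes.

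**Figure D5:**
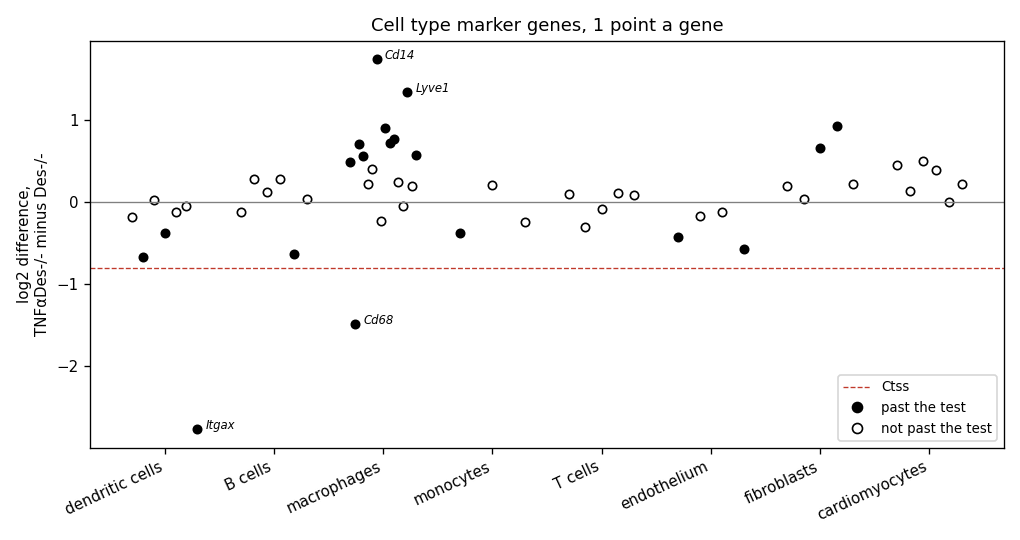
Log2 difference TNFαDes-/- minus Des-/- (vertical axis) of marker genes of 8 cell types, 1 point a gene, filled where the gene passed the test as deposited; the dashed line is Ctss at -0.80. Itgax and Cd68 lie below that line, while Cd14 and Lyve1 are the highest points.

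The genes whose array profile was most like that of H2-Aa, H2-Ab1, H2-Eb1 and Cd74 were Npc1, Arid5b, Pdzd8, Crkl and Medag, with root-mean-square differences of 0.017 to 0.031 from the mean centred log2 profile over the 6 arrays. That profile was -0.02, -0.03 and -0.04 on the TNFαDes-/- arrays and 0.28, -0.12 and -0.06 on the Des-/- arrays, so its main feature is the high Des-/- replicate 1. Of 18189 other genes, 771 lay within 0.1 of it.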

How the data were processed

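RNA of 3-month hearts was hybridised to 6 one-colour arrays, 3 per genotype, grouped by sample title. The authors deposited log2 values. Per the submitters' processing notes these came from RMA, with no version given. The sources used here do not say whether the arrays were quantile-normalized together. As deposited the 6 arrays do not share 1 distribution: the 99th percentile was 12.31 on TNFαDes-/- replicate 1 and 11.69 on Des-/- replicate 3. Of 45101 probe sets, 64 controls were left out; 34945 have 1 gene symbol, 932 several and 9160 none. For 18193 genes the brightest probe set (mean of 6 arrays) stood for the gene, without a filter. The comparison used lmFit and eBayes of limma 3.58.1 (R 4.3.3) and Benjamini-Hochberg adjustment over all genes, or over 45037 probe sets where single ones are given, at 0.05. The log2 difference is TNFαDes-/- minus Des-/-. The script was tested on simulated data with known changes. It called 18% of changes of 0.5 (log2), 62% of changes of 1 and 98% of changes of 2. The simulation changed fewer genes than were called here, so these shares do not carry over directly. A gene that did not pass may still differ.

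The members, lists and rule for named genes were chosen with earlier results of these data known. The text names the members, each gene of the wider and interferon-γ lists that was measured, up to 3 called markers a list, and the 5 genes most like the chains; other markers, the region's genes and single probe sets were named after their values were seen. Promoter windows came from RefSeq (GRCm38.p6). Alternatives covered the variance prior, array weights, a replicate block, probe set choice, a filter (mean of at least 5.05), centring, quantile normalization and each array left out. The number of arrays limits the precision. Some listed genes are not reported here. Figures were drawn with matplotlib 3.10.9.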

Additional observations from a re-analysis of the deposited data

How the results depend on the processing

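Of the 7 members, 1 was called as deposited, and also in the 6 fits that left out 1 array (1 to 1); 3 were called with array weights (Cd74 higher, H2-DMa and Ctss lower), 4 after quantile normalization, and 5 after quantile normalization with Des-/- replicate 1 left out. Their median log2 difference of -0.11 was -0.27 without _a_at, _s_at and _x_at probe sets (4 members left), -0.35 after quantile normalization, -0.31 with Des-/- replicate 1 as the sole Des-/- array and -0.38 after quantile normalization with that array left out; with 1 array left out it ran from -0.17 to -0.06. The wider list's 3 calls became 6 with an intensity trend, 6 with the filter, 6 with the mean of all probe sets, 12 with array weights, 5 with the replicate block, 7 after quantile normalization and 7 after it without Des-/- replicate 1, and ran from 2 to 9 with 1 array left out. Over all genes, 3869 calls became 8414 with array weights, 6695 over single probe sets and 1587 with Des-/- replicate 1 as the sole Des-/- array, and 5814 without Des-/- replicate 1, 2232 without Des-/- replicate 2, 2220 without Des-/- replicate 3, 2075 without TNFαDes-/- replicate 1 and 2068 without TNFαDes-/- replicate 3. As deposited 2768 calls were higher and 1101 lower; after quantile normalization 2189 were higher and 1896 lower. Calls of the opposite sign arose after quantile normalization for Ctsb (-0.28) and Ctsl (-0.28), and after it without Des-/- replicate 1 for Ctsb (-0.32), Ctsl (-0.27) and Cd74 (-0.29). The cause was not tested. Same-numbered arrays did not deviate together (correlations of 0.25, 0.31 and -0.30 for numbers 1, 2 and 3), so they share only a number; the replicate block gave 4278 calls over all genes and left 1 member called, Ctss. The 2 settings with Des-/- replicate 1 alone or left out of the quantile normalization were chosen after seeing the data. A lone array is assumed there to vary like the other group.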
